A study of Homo sapiens with 24 samples.

Results

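The interferon response and MHC class I genes are 41 listed interferon-stimulated and class I antigen presentation genes. They were taken out of 60641 gene symbols counted in every library. The members, their roles and the other gene lists below were chosen with earlier results of these data known. Shares of members that pass a test are therefore a description and no independent evidence. Their counts were examined in all 24 RNA-seq libraries, in 8 groups of 3, as CPM, the counts of a gene scaled to a common library total. By role, 5 members encode class I chains, 5 supply peptides to them, 5 are transcription regulators, 2 belong to the ISG15 system, 4 are IFIT genes, 5 are RNA sensors or OAS genes, 3 are best known as induced by interferon gamma and 12 are other antiviral effectors. Of the 41 genes, 38 had enough counts to be tested in at least 1 comparison.

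The study deleted by CRISPR/Cas9 the DNA sequence of the predicted DNA-binding domain (DBD) of noncoding transcripts that are known only by assembly names. Cells were sequenced with and without the deletion, and no interferon treatment is named in the labels. In A549, a human lung adenocarcinoma cell line, there was a wild type (WT B), a knockout (KO) for MSTRG.2513.6 and a further one for MSTRG.4401.1. HCT116, a human colorectal carcinoma cell line, had KOs for the same targets and for MSTRG.34636.7, besides a pair of wild-type sets (WT A and WT B). Library numbers 1A, 2A and 3A were used for WT A and the KO of MSTRG.34636.7, which were set against each other. The remaining libraries are numbered from S8 to S25, and their KOs were set against WT B of the same line. The labels do not say whether the KO cells of a group came from 1 clone, or whether its 3 libraries came from separate cultures, so p-values measure the spread between these libraries, which may be technical. The counted symbols hold no row for the MSTRG transcripts, so the deletions could not be checked in these tables.

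Libraries held 25799359 to 102261808 counts. A549 MSTRG.4401.1 KO was the shallowest group, with 25799359 to 33205007 counts, and 3.50% to 7.87% of them were mitochondrial, against 1.96% to 2.37% in A549 WT B. All 5 markers listed for A549 were called higher in wild-type A549 than in wild-type HCT116. The 5 intestinal markers listed for HCT116 did not mark that line as a list, since of the 4 tested 3 were called higher in A549 and only CDX2 lower. CDH17, for example, had 5.21 to 7.77 CPM in A549 WT B and 0.482 to 0.687 CPM in WT B of HCT116. The intestinal factor CDX2 stood at 18.2 to 19.4 CPM in wild-type HCT116 (WT B) and 0.488 to 1.20 CPM in wild-type A549. ALDH1A1, abundant in A549, had the opposite order, at 0 to 0.0623 CPM and 5936 to 6347 CPM. S8 and S9, which the labels give as KOs of MSTRG.2513.6 in HCT116, had 4324 and 4611 CPM of ALDH1A1 and 0.636 and 0.406 CPM of CDX2, whereas S11 of that group had 0 and 18.2 CPM. Results that rest on S8 and S9 are therefore given with and without them. The summed level of 8 immune cell markers was at most 9.50 CPM in any library. In bulk RNA, fewer cells that express a gene and less of its RNA per cell cannot be told apart.

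Interferons bind receptors that signal through JAK kinases to STAT proteins. Type I interferon drives the complex of STAT2, its STAT partner and IRF9 to an element of repeated GAAA letters, called ISRE, in promoters of antiviral genes, while interferon gamma acts mainly through a shorter palindrome, called GAS, and through IRF1. Class I molecules consist of an HLA heavy chain and B2M, and are loaded with peptides cut by the immunoproteasome and pumped into the endoplasmic reticulum by TAP, with tapasin (TAPBP) as loading factor. NLRC5 is the dedicated transactivator of the class I genes.

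Promoters of some members that were lower in a KO of MSTRG.4401.1 are shown first. ISG15, which did not pass the test in these KOs, is beside them. All of those shown hold letters of the ISRE, and lower members without them, such as HLA-B and PSMB9, are not shown. Whether these letters bear on the changes was not tested. Each window lies before the transcription start in RefSeq (GRCh38.p14) and is printed on the strand of the gene. Capitals mark 2 copies of GAAA set 2 bases apart, the ISRE core, or its reverse complement TTTC. Windows of B2M and IFIH1 touch an annotated exon and were kept to 30 bases, and the others have 70 bases. They are chr15:44711366-44711395 on the plus strand for B2M, chr6:32853817-32853886 on the minus strand for TAP1, chr1:27672309-27672378 on the minus strand for IFI6, chr2:162318821-162318850 on the minus strand for IFIH1, chr10:89327811-89327880 on the plus strand for IFIT3, chr9:5450307-5450376 on the plus strand for CD274 and chr1:1013357-1013426 on the plus strand for ISG15.
B2M: actctaaGAAAAGGAAACTGAAAacgggaa
TAP1: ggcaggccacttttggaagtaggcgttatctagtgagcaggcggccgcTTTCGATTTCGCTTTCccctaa
IFI6: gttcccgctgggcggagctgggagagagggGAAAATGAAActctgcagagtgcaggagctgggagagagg
IFIH1: aattcgcTTTCCTTTTCTGTTTCccgcggt
IFIT3: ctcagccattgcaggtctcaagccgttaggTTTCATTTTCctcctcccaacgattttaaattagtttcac
CD274: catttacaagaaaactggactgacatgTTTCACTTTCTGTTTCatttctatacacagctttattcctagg
ISG15: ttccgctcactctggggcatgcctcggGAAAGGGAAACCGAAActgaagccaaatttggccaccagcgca

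In B2M, TAP1, IFIH1, CD274 and ISG15 the core occurs 2 times in overlap, so that GAAA or TTTC stands 3 times in a row with the same spacing. In the window of 250 bases before to 50 bases after the start, the core was found on either strand in 22 of the 32 members with an entry in the RefSeq table (68.8%), against 4.38% of all 27305 genes there. The GAS core TTCNNNGAA, which is its own reverse complement, was found in 9 of 32 members (28.1%) and in 9.38% of all genes. HLA-B, HLA-C, PSMB9, STAT2, IRF1, IRF9, OAS1, CMPK2, XAF1 and SAMHD1 held no ISRE core within these bases. TAP1 and PSMB9 lie head to head on chromosome 6, with their listed starts 488 bases apart. A match of letters is a description of the window and not a measured binding site.

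The first comparison asks how the lines differ before any deletion. In wild-type cells, A549 had less class I heavy chain RNA than HCT116 and more immunoproteasome RNA. All 5 class I chain genes were lower in A549 at FDR < 0.1. Of the 5 peptide supply genes, PSMB8, PSMB9 and TAPBP were higher and the other 2, TAP1 and TAP2, were lower. The CPM ranges of TAPBP in the lines overlapped. FDR here is the p-value from the quasi-likelihood test of edgeR, adjusted over all genes tested by the Benjamini-Hochberg procedure, and a gene is named as called where its FDR is below 0.1 and its log2(fold change) beyond 1 in size. Of 38 members tested, 6 were called higher and 13 lower in A549 WT B, while 17.2% of all 27882 genes were called higher and 18.5% lower. Without the fold threshold 8 were higher and 21 lower, against 31.2% and 31.7% of all genes. The median log2(fold change) was -0.49 over the members and -0.02 over all genes.

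HLA-B, a classical class I heavy chain, stood at 5.49, 4.39 and 5.53 CPM in A549 WT B (S20 to S22) and at 145, 150.3 and 142 CPM in HCT116 WT B (S12 to S14). The groups lie far apart, with a log2(fold change) of -4.56 ± 0.12 (SE, n = 3 and 3, edgeR FDR = 1.6e-07). HLA-C, the next classical chain on the list, had 39.9 to 41.5 CPM in A549 and 264 to 271 CPM in HCT116, a log2 difference of -2.45 ± 0.07 (edgeR FDR = 2.0e-07). Reads of HLA genes can be shared between near-identical copies, and how the authors' counting split them is not given in the sources used here. B2M, the common light chain, differed far less, with 114 to 118 CPM in A549 and 149 to 173 CPM in HCT116 (log2 difference -0.24 ± 0.09, edgeR FDR = 0.045). HLA-E and HLA-F, nonclassical chains, were also lower, by log2 differences of -0.98 and -1.33.

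PSMB8, a catalytic subunit of the immunoproteasome, had 10.5, 9.53 and 11.8 CPM in A549 WT B and 0.687, 0.312 and 0.299 CPM in HCT116 WT B. Its log2(fold change) was 4.89 ± 0.33 (edgeR FDR = 1.3e-05). PSMB9, the neighbouring catalytic subunit, had 8.30 to 12.04 CPM in A549 and 4.13 to 4.52 CPM in HCT116 (log2 difference 1.503 ± 0.20, edgeR FDR = 0.00044). Among libraries given as HCT116, PSMB8 stood at 0.0703 to 0.687 CPM everywhere but in S8 and S9. PSMB8, PSMB9 and TAP1 overlap in the annotation with genes on the other strand, and whether counting used the strand is not given in the sources used here.

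Among the antiviral genes the lines also went in opposite directions. ISG15, a ubiquitin-like modifier, had 4.14 to 6.54 CPM in A549 WT B and 71.0 to 73.8 CPM in HCT116 WT B (log2 difference -3.56 ± 0.15, edgeR FDR = 1.3e-06). OAS1, which makes the activator of RNase L, had 11.01 to 13.9 CPM in A549 and 0.400 to 0.665 CPM in HCT116 (log2 difference 4.83 ± 0.21, edgeR FDR = 1.6e-06). OASL, an OAS relative, had 0.645, 0.185 and 0.674 CPM in A549 and 3.91, 4.64 and 4.06 CPM in HCT116 (-2.82 ± 0.43, edgeR FDR = 0.0010). CMPK2, a mitochondrial nucleotide kinase, had 0.374, 0.589 and 0.601 CPM against 3.53, 3.15 and 3.34 CPM (-2.43 ± 0.22, edgeR FDR = 6.8e-05), and the sensor IFIH1 2.07, 1.73 and 2.12 CPM against 7.13, 8.48 and 8.28 CPM (-1.75 ± 0.17, edgeR FDR = 8.4e-05). In each of these genes the libraries of the lines stood apart. IFI44 had 0 counts in all 3 A549 WT B libraries and 0.847 ± 0.277 CPM (SD, n = 3) in HCT116 WT B, which makes it at least 14.6-fold lower in A549 when 3 counts are set as the floor of each library. The remaining called members were TAP2 (-1.10), NLRC5 (-1.24), IFI27 (-1.27), BST2 (-4.45) and RSAD2 (-3.05), lower in A549, and ISG20 (1.65), GBP1 (2.41) and GBP2 (1.92), higher. BST2, RSAD2 and GBP1 rest on levels under 1 CPM in WT B of both lines.

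Per kilobase of annotated exon the order of genes differed between the lines. The length joins the exons of all annotated transcripts, 3121 bases for B2M and 867 for ISG15, and may exceed that of the RNA present. The order depends on it, since by CPM alone B2M stood above ISG15 in HCT116 WT B. In HCT116 WT B the highest members were HLA-C with 106 ± 1.59 CPM per kb (SD, n = 3), ISG15 with 83.5 ± 1.58, B2M with 52.5 ± 4.26 and HLA-E with 48.5 ± 1.23. B2M and HLA-E are neighbours in that order whose SDs overlap. In A549 WT B the order was B2M with 37.0 ± 0.659 CPM per kb, TAPBP with 20.5 ± 0.498, HLA-E with 20.5 ± 0.755 and HLA-C with 16.2 ± 0.331, of which TAPBP and HLA-E did not differ beyond their spread. XAF1, IFI44L and MX2 stayed under 0.3 CPM in every library and were not tested in any comparison.

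**Figure D1:**
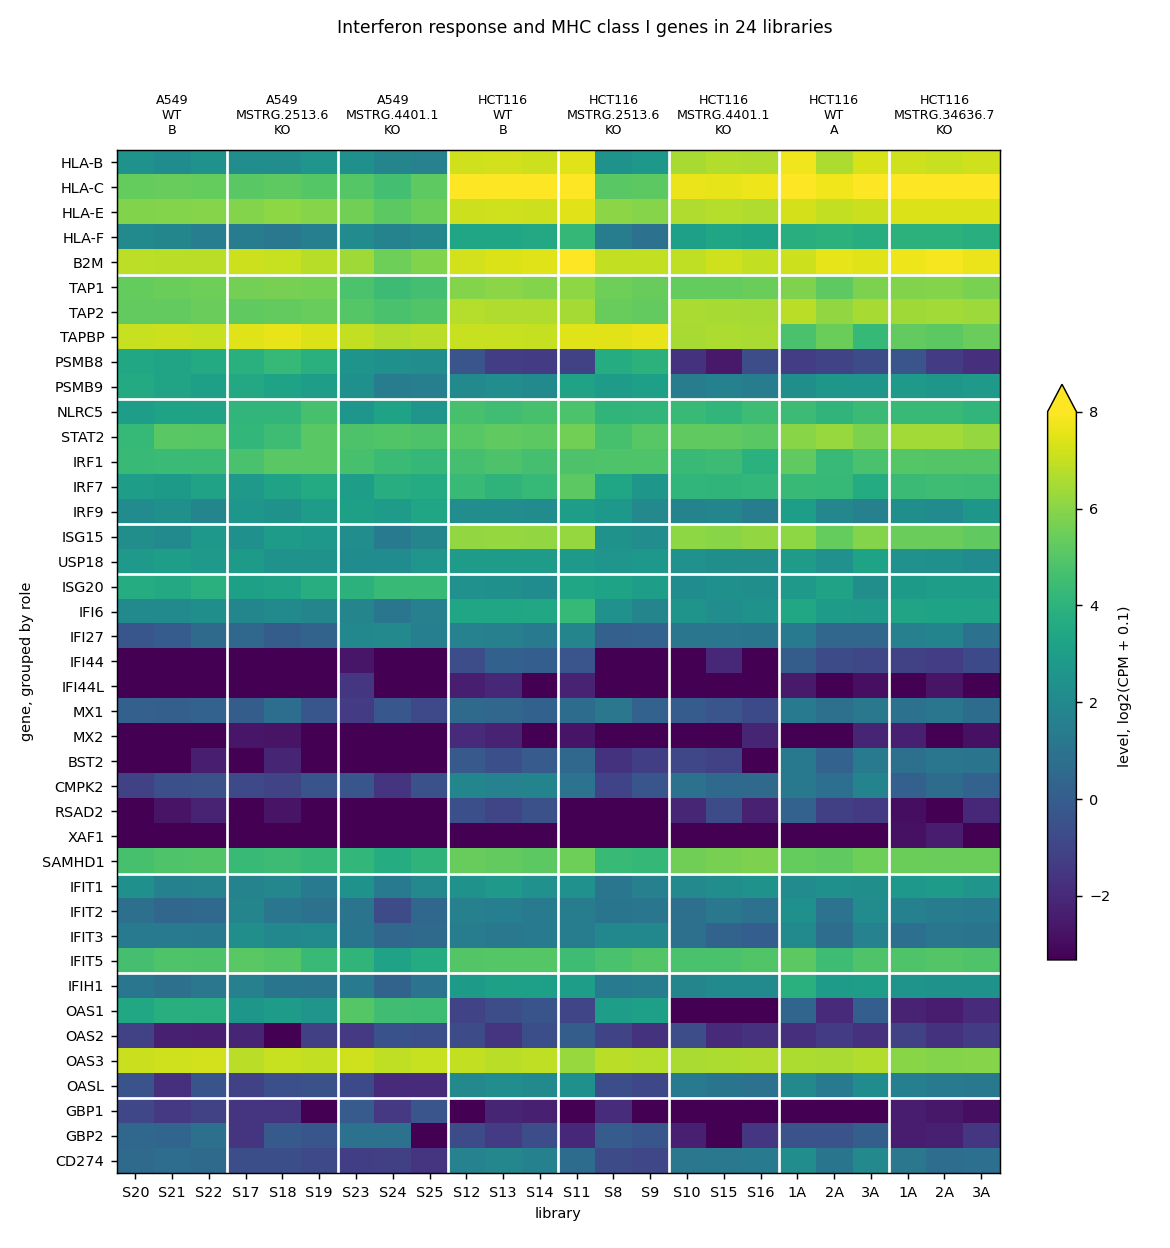
Level of each of the 41 genes, as log2(CPM + 0.1), by library, with the groups side by side and the genes ordered by role; colours are capped at 8. HLA-B, HLA-C and ISG15 are brighter and PSMB8 and OAS1 darker in the HCT116 columns, apart from S8 and S9, which look like the A549 columns.

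The KO of MSTRG.4401.1 was made in both lines, and asks whether the deletion changed these genes. In A549 it went with lower RNA of the whole peptide supply group: TAP1, TAP2, TAPBP, PSMB8 and PSMB9 were all lower at FDR < 0.1. B2M, HLA-C and HLA-E were lower as well, and IFI27, OAS1, IRF9 and ISG20 were higher. With 1 library left out at a time, HLA-C lost FDR < 0.1 in 4 of 6 fits, ISG20 in 5 and TAPBP in 2. Of 35 members tested, 1 was called higher and 5 lower, against 11.1% and 4.32% of the 24979 genes tested. At FDR < 0.1 alone, 4 were higher and 15 lower, against 21.3% and 22.4% of all genes. The median log2(fold change) was -0.38 over the members and 0.12 over all genes.

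PSMB9 stood at 5.09, 2.64 and 2.78 CPM in A549 MSTRG.4401.1 KO (S23 to S25) and at 12.04, 9.79 and 8.30 CPM in A549 WT B (S20 to S22). The groups did not overlap, and the log2(fold change) was -1.61 ± 0.29 (edgeR FDR = 0.0050). PSMB8 had 5.78, 5.04 and 4.54 CPM in the KO against 10.5, 9.53 and 11.8 CPM in WT B, a log2 difference of -1.13 ± 0.17 (edgeR FDR = 0.0024). TAP1, one of the pair of transporter subunits, had 28.0, 21.4 and 24.3 CPM against 40.4, 43.2 and 45.2 CPM (log2 difference -0.88 ± 0.12, edgeR FDR = 0.0016). In each of these genes all 3 KO libraries lay below all 3 wild-type libraries. TAP2 (-0.52 ± 0.11) and TAPBP (-0.33 ± 0.11) were lower by less.

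B2M stood at 84.4, 44.6 and 57.1 CPM in the KO and at 118, 114 and 115 CPM in WT B, and S23 was the highest KO library. Its log2(fold change) was -0.98 ± 0.20 (edgeR FDR = 0.0077), short of the fold threshold. HLA-B, already low in this line, had 4.97, 3.41 and 3.16 CPM in the KO and 4.39 to 5.53 CPM in WT B. Those ranges overlapped, and HLA-B did not pass the test. CD274, the gene of PD-L1, which restrains T cells, had 0.331, 0.349 and 0.229 CPM in the KO and 1.41, 1.55 and 1.42 CPM in WT B. It was the most strongly lowered member, at a log2(fold change) of -2.34 ± 0.34 (edgeR FDR = 0.0022).

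IFIT5, which binds foreign RNA ends, had 16.7, 9.19 and 12.4 CPM in the KO and 24.9, 29.8 and 28.1 CPM in WT B (log2 difference -1.19 ± 0.20, edgeR FDR = 0.0038). MX1, an antiviral GTPase, was called lower at -1.13 ± 0.40 (edgeR FDR = 0.060), from 0.301 to 0.736 CPM in the KO and 0.992 to 1.08 CPM in WT B. SAMHD1, which breaks down nucleotides, was lower by a log2 difference of -0.94 ± 0.14. IFIT3 (-0.69), IFI6 (-0.71) and USP18 (-0.63), which removes ISG15 from proteins, were also lower at FDR < 0.1, while IFIT1 stood at 2.48 to 5.42 CPM in the KO and 3.03 to 5.06 CPM in WT B. With 1 library left out at a time, MX1, IFIT3 and USP18 lost FDR < 0.1 in 4 of 6 fits and IFI6 in 1.

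Other members went the opposite way. IFI27, which encodes a small interferon-induced membrane protein, had 3.85, 3.91 and 2.86 CPM in the KO and 0.713, 0.874 and 1.42 CPM in WT B (log2 difference 1.76 ± 0.29, edgeR FDR = 0.0037). OAS1 had 31.9, 23.2 and 22.1 CPM against 11.01, 13.9 and 13.8 CPM (0.92 ± 0.16, edgeR FDR = 0.0042). IRF9, the DNA-binding part of the type I interferon complex, was higher by 0.92 ± 0.22, while STAT2 stood at 28.3 to 30.6 CPM in the KO, inside the 19.3 to 34.4 CPM of WT B. NLRC5 stood at 5.91 to 9.42 CPM against 7.91 to 9.48 CPM, also overlapping.

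These A549 libraries differ in depth and mitochondrial share as given above, and the part of that in the result was not tested. With upper-quartile normalization the median of all genes moved from 0.12 to 0.28, and 3 members were called higher and 3 lower, with 5 and 10 at FDR < 0.1. HLA-C, TAPBP, IFIT3, MX1 and USP18 then no longer passed. The members' median lay 0.50 below that of all genes with the main scaling and 0.49 below it with the other. A change of scaling moves all genes by about the same amount, so this gap could hardly change and tells nothing about depth.

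In HCT116 the KO of MSTRG.4401.1 went with lower levels across most of the list. Of 37 members tested, 35 had a negative log2(fold change), against 49.5% of all 26615 genes. At FDR < 0.1, 22 were lower and 1, SAMHD1, was higher, against 8.72% and 7.57% of all genes. With the fold threshold 0 were called higher and 5 lower, against 0.996% and 1.62%. The lower genes included 4 of 5 class I chains, 4 of 5 peptide supply genes and 4 of 5 RNA sensing and OAS genes. The median log2(fold change) was -0.53 over the members and 0.0034 over all genes.

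HLA-B had 91.99, 102 and 99.8 CPM in the KO (S10, S15 and S16) and 145, 150.3 and 142 CPM in HCT116 WT B. The groups lay apart by more than their spread, at a log2(fold change) of -0.59 ± 0.05 (edgeR FDR = 0.00057). TAP1 had 39.9, 40.02 and 43.2 CPM in the KO and 59.7, 65.0 and 60.003 CPM in WT B (log2 difference -0.60 ± 0.06, edgeR FDR = 0.00094). TAPBP had 91.4, 96.4 and 95.3 CPM against 134, 131 and 129 CPM (-0.49 ± 0.04, edgeR FDR = 0.00044). None of these groups overlapped with its wild type. PSMB9, HLA-C, HLA-E and B2M were lower by -0.65, -0.43, -0.47 and -0.35 on the log2 scale, and HLA-F and PSMB8 did not pass the test. With 1 library left out at a time, B2M and TAP2 lost FDR < 0.1 in 4 of 6 fits and PSMB9 in 1. HLA-B, TAP1 and TAPBP lost it in 0.

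The sensor IFIH1 (MDA5), which recognises long double-stranded RNA, had 3.41, 3.99 and 4.13 CPM in the KO and 7.13, 8.48 and 8.28 CPM in WT B. Every KO library lay below every wild-type library, at a log2(fold change) of -1.07 ± 0.14 (edgeR FDR = 0.0031). OASL had 2.38, 2.04 and 1.84 CPM against 3.91, 4.64 and 4.06 CPM (-1.02 ± 0.17, edgeR FDR = 0.0098). CMPK2 had 1.74, 1.38 and 1.43 CPM against 3.53, 3.15 and 3.34 CPM (-1.15 ± 0.17, edgeR FDR = 0.0055). OAS1 had 0 counts in all 3 KO libraries and 0.400, 0.545 and 0.665 CPM in WT B, so that it was at least 8.46-fold lower against a floor of 3 counts in each library (edgeR FDR = 0.0059). IFI44 was at 0, 0.141 and 0 CPM in the KO and at 0.534, 1.06 and 0.948 CPM in WT B (edgeR FDR = 0.027). IFI6, a relative of IFI27, had 5.66, 4.57 and 5.54 CPM against 10.3, 10.4 and 10.5 CPM, with a log2(fold change) of -0.995 ± 0.12 that fell just short of the fold threshold (edgeR FDR = 0.0024).

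Of the 5 regulators 3 were lower at FDR < 0.1, and of the ISG15 system USP18 was lower and ISG15 did not pass. USP18 had 5.25, 4.85 and 4.77 CPM in the KO and 7.63, 7.29 and 7.67 CPM in WT B, with no overlap and a log2 difference of -0.61 ± 0.12 (edgeR FDR = 0.015). IRF1 had 19.9, 21.4 and 15.02 CPM in the KO and 25.4 to 28.4 CPM in WT B (log2 difference -0.50 ± 0.14, edgeR FDR = 0.065), and NLRC5 (-0.34 ± 0.09) and IRF9 (-0.53 ± 0.16) were also lower at FDR < 0.1. With 1 library left out at a time, NLRC5 and IRF9 lost FDR < 0.1 in 5 of 6 fits and IRF1 in 4. USP18 kept it in all 6. STAT2 stood at 34.7 to 37.9 CPM in the KO and 33.3 to 37.4 CPM in WT B. ISG15 stood at 63.8 to 72.1 CPM and 71.0 to 73.8 CPM, and did not pass the test. The ranges of ISG15 overlapped. IFIT1, IFI27, MX1 and BST2 had fitted log2(fold change) values below 0 without passing the test.

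**Figure D2:**
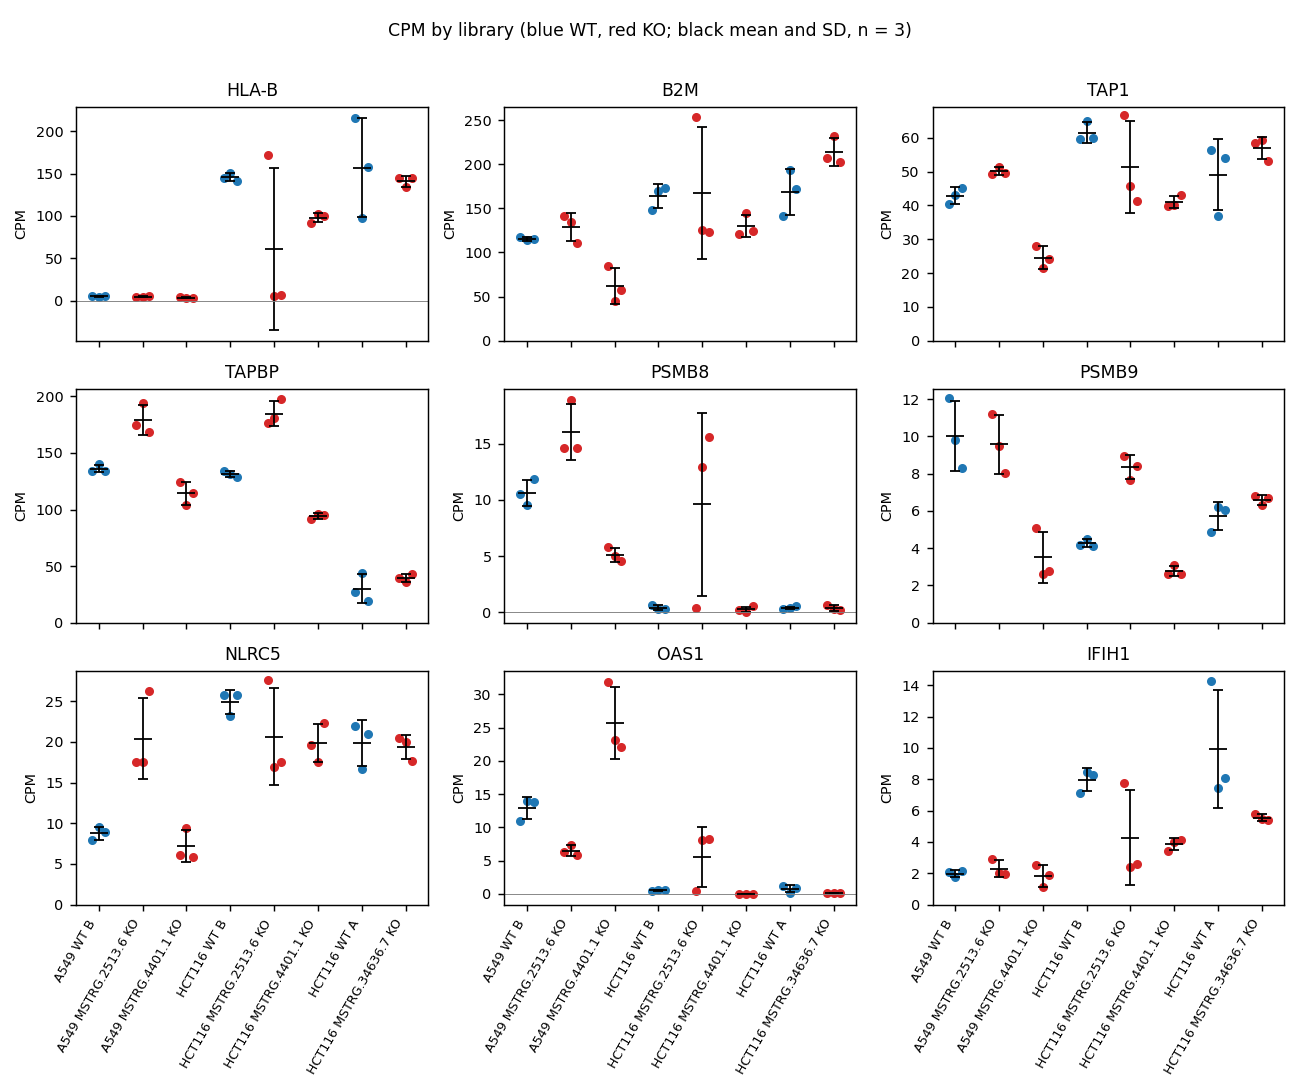
CPM of 9 genes in every library, 1 point per library, with the mean and SD of each group of 3 as black bars and the vertical axis linear. In HLA-B, TAP1, TAPBP, PSMB9 and IFIH1 the 3 HCT116 MSTRG.4401.1 KO points lie below the 3 WT B points, and TAPBP is lowest in HCT116 WT A and MSTRG.34636.7 KO.

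The count of lower members in HCT116 depended on which wild-type set was the control. Against WT A, whose libraries carry the other kind of number, 10 members were lower and 1 was higher at FDR < 0.1, with 7 called lower and 1 higher. With this control 2743 of all 26786 genes were called, against 697 of 26615 with WT B. In all, 5 members were lower against each set: HLA-E, PSMB9, IFIT3, IFI44 and IFIH1. The share of all genes at FDR < 0.1 against WT A, or lower against both sets, was not counted. These member counts therefore have no background to be read against. Of these, IFIT3 lost FDR < 0.1 against WT B in 5 of the 6 fits that leave out 1 library. Wild-type library 2A stood low for several members, with HLA-B at 215, 97.7 and 158 CPM in WT A 1A, 2A and 3A, so that the KO range of 91.99 to 102 CPM overlapped with it. HLA-B was then at -0.70 ± 0.26 (edgeR FDR = 0.13) and B2M at -0.39 ± 0.15 (edgeR FDR = 0.14). TAPBP turned direction, from -0.49 against WT B to 1.66 against WT A (edgeR FDR = 0.0040), and STAT2 stood at -0.81 against WT A (edgeR FDR = 0.0066). In 1 fit of all HCT116 libraries, S8 and S9 included, 0 members passed by edgeR, where 27 of all 30014 genes were called. Without S8 and S9 that fit had 6 members called and 10 at FDR < 0.1, with 411 of 32892 genes called. The members' median log2(fold change) was -0.53 in each of these joint fits. It had to stay near the main value, since both still contrast the same KO and WT B libraries and only the spread changes. Against WT A the members' median was -0.61. The KO libraries enter both comparisons, so the values are given side by side and are not independent.

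The wild-type sets themselves differed in few members. Of 37 tested, BST2, which tethers budding viruses, was called higher in WT A (1.40 ± 0.38, edgeR FDR = 0.063) and TAPBP lower (-2.16 ± 0.26, edgeR FDR = 0.0014), against 3.16% and 3.9% of all genes. At FDR < 0.1 alone 2 were higher and 1 lower, against 5.56% and 6.71%, the additional gene being STAT2 (0.85 ± 0.14, edgeR FDR = 0.0069). Without 3A, S12, S13 or S14, 1 member was called. BST2 lost FDR < 0.1 in 5 of the 6 fits that leave out 1 library, with an edgeR FDR of up to 0.22. TAPBP and STAT2 lost it in 0. TAPBP stood at 18.9 to 43.97 CPM in the 6 libraries numbered 1A to 3A and at 91.4 to 197 CPM in the 18 others, of both lines. STAT2 showed the opposite order, at 54.1 to 86.8 CPM against 17.7 to 48.4 CPM. Since both the KO and the wild type of the lettered libraries share these levels, they go with the kind of library number, which cannot be told apart from other differences between the sets. BST2 had 2.27, 1.08 and 2.43 CPM in WT A and 0.782, 0.577 and 0.848 CPM in WT B.

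**Figure D3:**
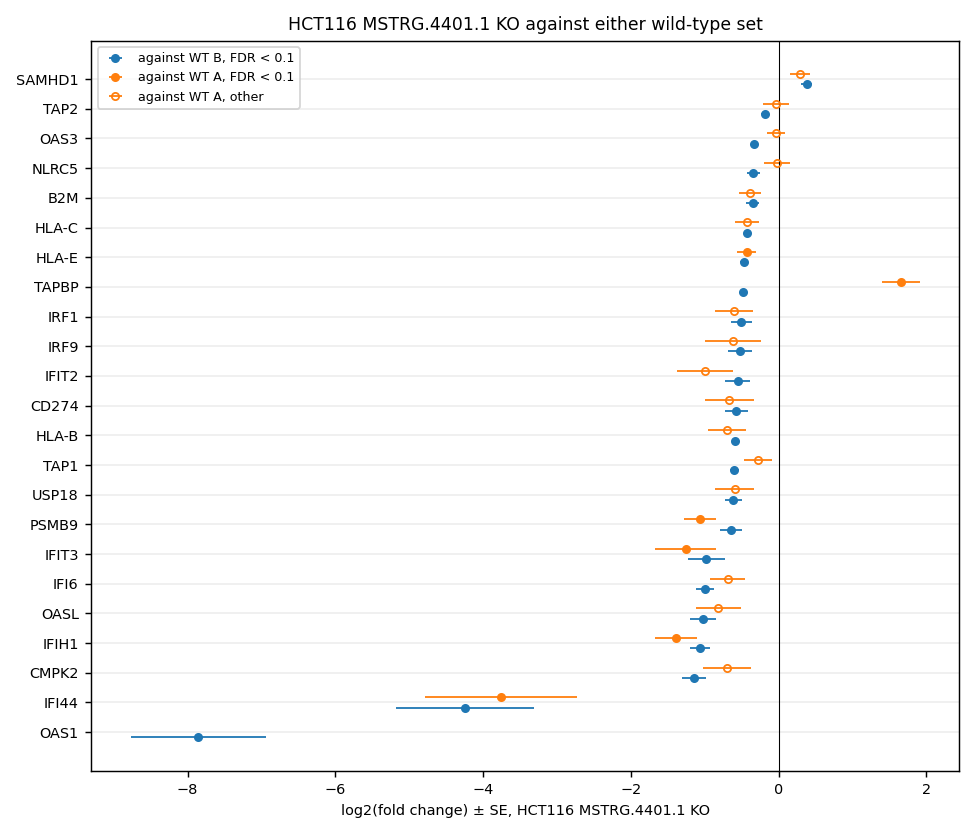
Fitted log2(fold change) ± SE in HCT116 MSTRG.4401.1 KO, against WT B (blue) and against WT A (orange), for the 23 members at FDR < 0.1 against WT B; open points did not pass against WT A and OAS1 was not tested there. Most orange points lie near the blue ones with longer bars, and TAPBP lies on opposite sides of 0.

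Whether the deletion of MSTRG.4401.1 acted differently in the lines was tested as an interaction over 12 libraries. Of 38 members tested, 5 had a more positive and 6 a more negative log2(fold change) in A549 than in HCT116 at FDR < 0.1, against 11.6% and 15.4% of all 30134 genes. Both counts are close to the share of all genes. OAS1 was higher in the A549 KO and at 0 in the HCT116 KO, and IRF9 was higher in A549 (0.92) and lower in HCT116 (-0.53), a difference of 1.41 ± 0.28 (edgeR FDR = 0.0049). IFI27 differed by 2.201 ± 0.33 (edgeR FDR = 0.00087). CD274 (-1.80 ± 0.30), SAMHD1 (-1.35 ± 0.17), IFIT5 (-1.03 ± 0.24), PSMB9 (-0.997 ± 0.36), B2M (-0.67 ± 0.26) and TAP2 (-0.37 ± 0.12) had the more negative value in A549. Against the KO of MSTRG.2513.6 in the same line, which shares the KO libraries with the first A549 comparison, A549 MSTRG.4401.1 KO had 2 members called higher and 8 lower, against 10.9% and 5.75% of all genes. At FDR < 0.1 they were 3 and 14, against 17.4% and 19.8%. The called members were IFI27 and OAS1, higher, and B2M, TAP1, PSMB8, PSMB9, NLRC5, IFIT3, IFIT5 and MX1, lower.

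**Figure D4:**
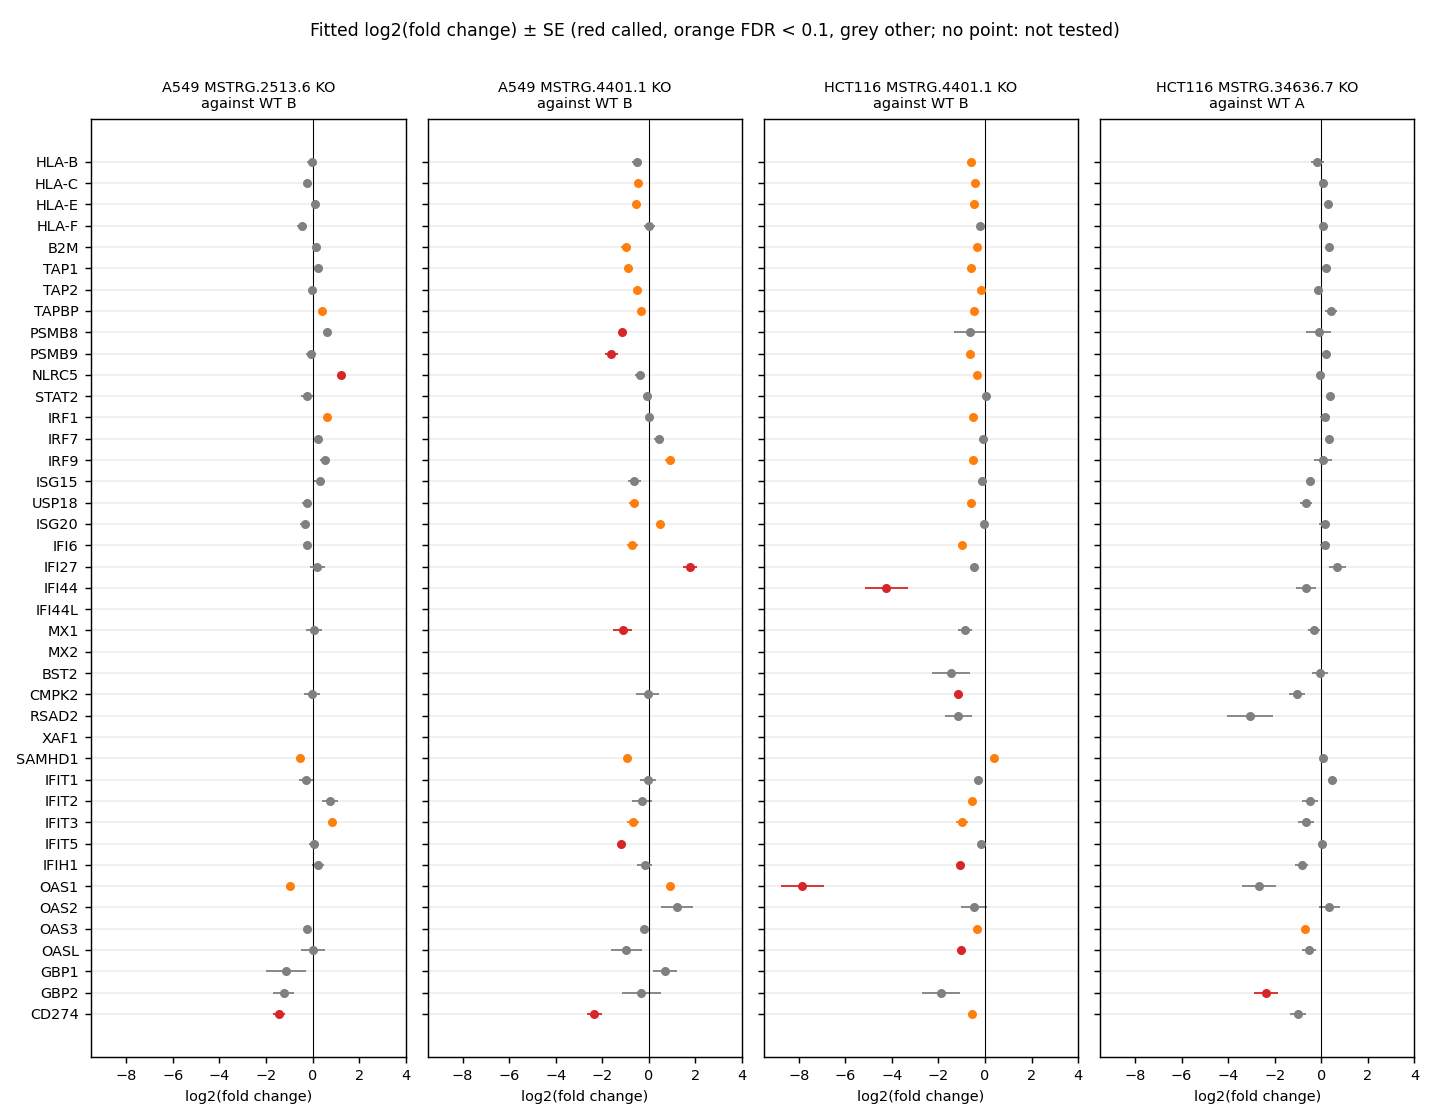
Fitted log2(fold change) ± SE of each gene in 4 KO comparisons, ordered by role, with called genes in red, genes at FDR < 0.1 in orange and others in grey; a gene with no point was not tested. Both MSTRG.4401.1 columns have more coloured points left of 0 than right of it, with 15 against 4 in A549 and 22 against 1 in HCT116, and the other columns have 9 coloured points in all.

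In A549 the KO of MSTRG.2513.6 changed few members, and not in 1 direction. Of 34 tested, NLRC5 was called higher and CD274 lower, against 1.13% and 1.79% of all 25666 genes. At FDR < 0.1 alone 4 were higher (NLRC5, IRF1, IFIT3 and TAPBP) and 3 lower (CD274, OAS1 and SAMHD1), against 2.77% and 3.19%. NLRC5 had 17.5, 17.5 and 26.2 CPM in the KO (S17 to S19) and 7.91, 9.48 and 8.97 CPM in WT B, a log2(fold change) of 1.21 ± 0.18 (edgeR FDR = 0.012). The 3 KO libraries all lay above WT B, but none of the 5 class I chain genes passed the test. HLA-B stood at 4.59 to 5.82 CPM in the KO and 4.39 to 5.53 CPM in WT B, and B2M at 111 to 141 CPM and 114 to 118 CPM. CD274 had 0.563, 0.559 and 0.471 CPM in the KO against 1.41 to 1.55 CPM (-1.45 ± 0.26, edgeR FDR = 0.024). OAS1 had 6.26, 7.39 and 5.84 CPM against 11.01 to 13.9 CPM (-0.98 ± 0.16, edgeR FDR = 0.019), and IRF1 26.5, 34.2 and 34.3 CPM against 20.2 to 20.8 CPM (0.62 ± 0.13, edgeR FDR = 0.042). The call of CD274 was lost without WT B library S21, which left 1 member at FDR < 0.1, and 3 or 4 were left without S17, S18, S20 or S22. TAPBP, IFIT3 and SAMHD1 lost FDR < 0.1 in 5 of the 6 fits that leave out 1 library, and IRF1 in 4. OAS1 and CD274 lost it in 1 and NLRC5 in 0. The comparison shares WT B with that of MSTRG.4401.1 KO.

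The 3 libraries given as MSTRG.2513.6 KO of HCT116 were not alike. HLA-B was at 172 CPM in S11 and at 5.55 and 6.399 CPM in S8 and S9, ISG15 at 73.2 CPM against 5.55 and 4.66 CPM, and PSMB8 at 0.358 CPM against 12.9 and 15.6 CPM. Of the 19 members called between the wild-type lines, S8 lay nearer to A549 WT B in 17 and S9 in 14, and S11 lay nearer to HCT116 WT B in 16. Among the genes that separated A549 MSTRG.2513.6 KO from A549 WT B, S8 and S9 had NLRC5 at 16.9 and 17.5 CPM, OAS1 at 8.12 and 8.24 CPM and CD274 at 0.509 and 0.430 CPM. NLRC5 and CD274 of these libraries thus stood close to the range of A549 MSTRG.2513.6 KO and outside that of A549 WT B.

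With all 3 libraries as labelled, 37 members were tested and 0 were called higher and 1, RSAD2, lower, against 0.66% and 0.273% of all 26374 genes, with the same counts at FDR < 0.1 alone, against 0.792% and 0.629%. At an unadjusted p below 0.05 there were 9 members, and DESeq2 called 7, where it called 2764 of all 26374 genes and edgeR 246. RSAD2, an antiviral radical enzyme, had 0 counts in the 3 libraries and 0.531 ± 0.096 CPM (SD, n = 3) in WT B, at least 7.31-fold lower (edgeR FDR = 0.095). Its call was lost in 5 of the 6 fits that leave out 1 library, those without S8, S9, S12, S13 or S14, with an edgeR FDR of up to 0.42. Against WT A it did not pass (edgeR FDR = 0.11), and TAPBP was called higher there (2.82 ± 0.35, edgeR FDR = 0.017). S11 alone, set against WT B with the spread of the wild-type libraries assumed for it, had 0 members called higher and 2 lower, against 5.2% and 3.49% of all genes. At FDR < 0.1 it had 10 higher and 6 lower, against 12.7% and 15.9%. B2M stood at 254 CPM in S11 against 149 to 173 CPM in WT B, PSMB9 at 8.97 CPM against 4.13 to 4.52 CPM and IRF7, an amplifier of type I interferon, at 35.5 CPM against 16.1 to 20.3 CPM. CD274 was at 1.51 CPM against 3.09 to 3.72 CPM and OAS3 at 76.6 CPM against 114 to 126 CPM. With 1 library these values have no replicate.

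**Figure D5:**
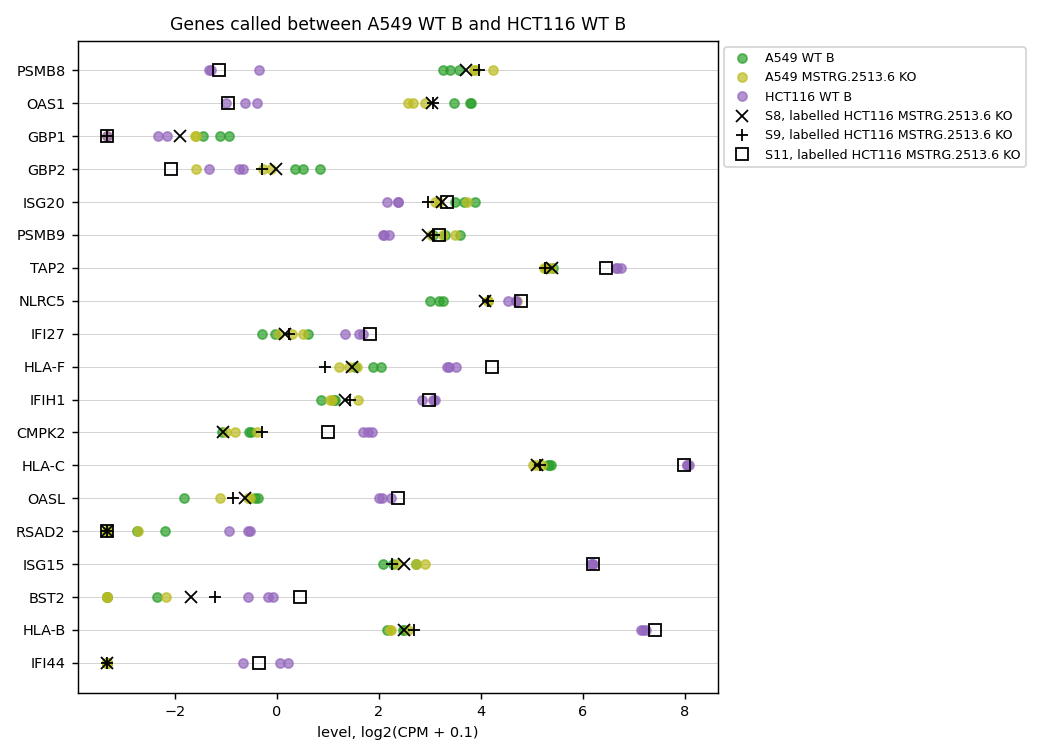
Level, as log2(CPM + 0.1), of the 19 members called between A549 WT B (green) and HCT116 WT B (purple), with A549 MSTRG.2513.6 KO (olive) and S8, S9 and S11 as black signs. S8 and S9 lie with the A549 points in most rows and S11 with the HCT116 points.

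The KO of MSTRG.34636.7 in HCT116 was compared with the wild type of its own numbering. Against WT A, 37 were tested, 0 were called higher and GBP2, a GTPase induced by interferon gamma, was called lower, against 0.729% and 0.607% of all 28816 genes. At FDR < 0.1 alone 0 were higher and 2 lower, against 1.18% and 0.972%. Of those tested, 12 had an unadjusted p below 0.05, and DESeq2 called 5, where it called 887 of all genes and edgeR 385. GBP2 had 0.0873, 0.101 and 0.245 CPM in the KO and 0.639, 0.652 and 0.988 CPM in WT A (-2.37 ± 0.52, edgeR FDR = 0.091). OAS3, the long OAS enzyme, had 62.7, 60.3 and 60.6 CPM against 97.7, 94.3 and 105 CPM, a log2(fold change) of -0.70 ± 0.12 (edgeR FDR = 0.053). In both genes the groups did not overlap. HLA-B stood at 134 to 145 CPM in the KO, inside the 97.7 to 215 CPM of WT A, and B2M at 202 to 232 CPM against 141 to 193 CPM, without passing the test (edgeR FDR = 0.32). Without the WT A library 2A, 5 members were called lower and 10 were lower at FDR < 0.1, while the genes called went from 385 of 28816 to 746 of 30726, and without each of the other libraries 0 were called.

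For 13 genes, levels were read in every library whether or not they were called, and those not given above follow. In A549 MSTRG.2513.6 KO (S17 to S19), B2M had 141, 134 and 111 CPM and TAP1 49.4, 51.5 and 49.7 CPM. PSMB9 had 11.2, 9.50 and 8.05 CPM and HLA-B 4.59, 4.61 and 5.82 CPM there. All of these but TAP1, whose 3 values lay above WT B without passing the test, overlapped with WT B. In MSTRG.34636.7 KO (1A to 3A), HLA-B had 144, 134 and 145 CPM, B2M 207, 232 and 202 CPM, TAP1 58.5, 59.2 and 53.2 CPM and PSMB9 6.82, 6.30 and 6.70 CPM. In WT A the same genes, HLA-B aside, had 141, 193 and 172 CPM, 56.3, 37.0 and 54.1 CPM and 4.85, 6.21 and 6.07 CPM. B2M and PSMB9 thus stood above WT A in all 3 KO libraries, within differences that did not pass the test. In HCT116 MSTRG.4401.1 KO, PSMB9 had 2.60, 3.07 and 2.62 CPM and B2M 121, 144 and 124 CPM, against 4.20, 4.52 and 4.13 CPM and 149, 169 and 173 CPM in WT B, with no overlap in either.

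Among the regulators, STAT2 had 19.3, 34.4 and 33.7 CPM in A549 WT B, 17.7, 22.3 and 34.5 CPM in MSTRG.2513.6 KO and 28.6, 30.6 and 28.3 CPM in MSTRG.4401.1 KO. In HCT116 it had 33.3, 37.4 and 34.9 CPM in WT B, 37.9, 37.3 and 34.7 CPM in MSTRG.4401.1 KO, 63.4, 75.1 and 54.1 CPM in WT A and 86.1, 86.8 and 74.4 CPM in MSTRG.34636.7 KO. WT A and its KO are the highest, and STAT2 passed the test in none of these KOs against its own wild type. IRF1, which acts downstream of interferon gamma, had 20.2, 20.6 and 20.8 CPM in A549 WT B and 25.7, 20.97 and 18.7 CPM in MSTRG.4401.1 KO. In HCT116 it had 25.5, 28.4 and 25.4 CPM in WT B, 38.1, 20.03 and 26.7 CPM in WT A and 32.7, 31.7 and 31.3 CPM in MSTRG.34636.7 KO. The 3 A549 wild-type values of IRF1 are close together, and those of WT A are wide apart.

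ISG15 had 4.77, 4.14 and 6.54 CPM in A549 WT B, 4.99, 7.41 and 6.53 CPM in MSTRG.2513.6 KO and 4.61, 2.48 and 3.43 CPM in MSTRG.4401.1 KO. In HCT116 it had 72.4, 73.8 and 71.0 CPM in WT B, 66.6, 63.8 and 72.1 CPM in MSTRG.4401.1 KO, 66.8, 40.0 and 60.2 CPM in WT A and 41.9, 42.0 and 37.8 CPM in MSTRG.34636.7 KO. The last group overlapped with WT A through library 2A, and no KO passed against its own wild type. IFIT1, which binds RNA lacking a host cap mark, had 5.06, 3.03 and 3.25 CPM in A549 WT B, 3.27, 3.69 and 2.48 CPM in MSTRG.2513.6 KO and 5.42, 2.48 and 3.93 CPM in MSTRG.4401.1 KO. In HCT116 it had 5.32, 6.59 and 5.22 CPM in WT B, 3.95, 4.71 and 5.45 CPM in MSTRG.4401.1 KO, 4.30, 4.99 and 4.82 CPM in WT A and 6.46, 7.29 and 5.91 CPM in MSTRG.34636.7 KO. IFIT1 passed the test in none of the comparisons, by edgeR at FDR < 0.1.

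IFI27 had 1.33, 0.926 and 1.13 CPM in MSTRG.2513.6 KO of A549. In HCT116 it had 3.11, 2.98 and 2.43 CPM in WT B, 2.09, 2.06 and 2.02 CPM in MSTRG.4401.1 KO, 2.46, 1.24 and 1.24 CPM in WT A and 2.95, 3.32 and 1.76 CPM in MSTRG.34636.7 KO. All 3 HCT116 MSTRG.4401.1 KO values lay below WT B, at a log2 difference of -0.47 ± 0.16 that did not pass (edgeR FDR = 0.11). MX1 had 1.002, 0.992 and 1.08 CPM in A549 WT B, 0.908, 1.59 and 0.728 CPM in MSTRG.2513.6 KO and 0.301, 0.736 and 0.457 CPM in MSTRG.4401.1 KO. In HCT116 it had 1.43, 1.22 and 1.03 CPM in WT B, 0.872, 0.680 and 0.475 CPM in MSTRG.4401.1 KO, 2.50, 1.73 and 2.22 CPM in WT A and 1.75, 2.06 and 1.503 CPM in MSTRG.34636.7 KO. The groups of MSTRG.4401.1 KO lay below their wild type in both lines, and in HCT116 the difference against WT B did not pass the test.

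BST2 was at 0, 0 and 0.0962 CPM in A549 WT B, 0, 0.122 and 0 CPM in MSTRG.2513.6 KO and 0, 0 and 0 CPM in MSTRG.4401.1 KO, at most 0.122 CPM in this line. It was at 0.426, 0.375 and 0 CPM in HCT116 MSTRG.4401.1 KO and 1.70, 2.08 and 1.96 CPM in MSTRG.34636.7 KO. OAS1 had 1.20, 0.163 and 0.958 CPM in WT A and 0.120, 0.0838 and 0.160 CPM in MSTRG.34636.7 KO, with every KO value just below the lowest of WT A and a log2 difference that did not pass (edgeR FDR = 0.15). CD274 had 3.11, 3.72 and 3.09 CPM in HCT116 WT B and 2.17, 2.23 and 2.33 CPM in MSTRG.4401.1 KO, with every KO value below every wild-type value (-0.58 ± 0.15, edgeR FDR = 0.056). There CD274 lost FDR < 0.1 in 4 of the 6 fits that leave out 1 library. It had 4.64, 2.00 and 3.88 CPM in WT A and 2.13, 1.56 and 1.63 CPM in MSTRG.34636.7 KO, which overlapped. CD274 was therefore lower at FDR < 0.1 in both KOs of A549 and in that of MSTRG.4401.1 in HCT116, where the A549 comparisons share their wild type.

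The rest of the pathway was read from 7 lists of 56 other genes, comprising ligands, receptors and kinases, sensors, class I assembly factors, further interferon-stimulated genes, class II genes and feedback inhibitors. In HCT116 MSTRG.4401.1 KO 49 of them were tested, and 3 were higher and 20 lower at FDR < 0.1, against 7.57% and 8.72% of all genes. Of these, 13 of the lower ones were among the 18 tested further interferon-stimulated genes, while 1 of 8 receptors and kinases was lower and 1 higher. IFITM3, which blocks virus entry, had 39.6, 45.0 and 38.7 CPM in the KO and 96.4, 106 and 109 CPM in WT B (-1.35 ± 0.08, edgeR FDR = 0.00012). IFITM2 (-1.15 ± 0.08) and IFITM1 (-1.73 ± 0.27) were lower too. The partners PARP9 and DTX3L, which act together on chromatin, were each lower by -1.44, and SAMD9, a restriction factor, had 2.94, 2.41 and 2.02 CPM against 22.4, 22.5 and 21.2 CPM (-3.17 ± 0.16, edgeR FDR = 5.6e-05). All 3 SAMD9 values also lay below the 20.7 to 31.8 CPM of WT A.

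In A549 MSTRG.4401.1 KO 49 of the 56 genes were tested, and 2 were higher and 22 lower at FDR < 0.1, against 21.3% and 22.4% of all genes. JAK1, the kinase shared by all interferon receptors, had 230, 178 and 194 CPM in the KO and 381, 448 and 454 CPM in WT B (-1.17 ± 0.12, edgeR FDR = 0.00049), and 5 of 8 receptors and kinases were lower, to be read against the same share of all genes. HERC5, the ligase that attaches ISG15, had 4.73, 3.33 and 5.15 CPM against 10.3, 11.4 and 12.01 CPM (-1.42 ± 0.20, edgeR FDR = 0.0022), and UBE2L6, the conjugating enzyme it works with, was lower by -1.14 ± 0.16. SOCS3, a feedback inhibitor, was lower by -1.17 ± 0.15 and the endosomal sensor TLR3 higher by 1.05 ± 0.44. For the KO of MSTRG.2513.6 in A549, 3 of the 50 tested genes of these lists were higher and 0 lower at FDR < 0.1. The shares of all genes were 2.77% and 3.19%. For the KO of MSTRG.34636.7 in HCT116, 1 of 51 was higher and 1 lower, against 1.18% and 0.972% of all genes. Between the wild-type lines the DNA-sensing pair was split, with CGAS at 17.8 to 19.5 CPM in A549 WT B and 0.0763 to 0.156 CPM in HCT116 WT B, and STING1 at 0.374 to 0.858 CPM and 18.2 to 20.2 CPM.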

How the data were processed

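RNA-seq libraries were rRNA-depleted and made with a strand-specific kit, per the labels. The submitters' processing notes name Trim Galore 0.6.6, FastQC 0.11.9, HISAT2 2.2.1 and hg38, and the paper's methods name StringTie. The authors deposited whole-number counts per gene symbol, not normalized, 1 table per library. The annotation, the use of strand and the step to whole counts are not given in the sources used here. Of these symbols 60641 occur in every table, and 3 found in only some were left out. No column of another series was present (0 columns unused).

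Each comparison was fitted on its 6 libraries with edgeR 4.0.16 in R 4.3.3 (TMM, filterByExpr, glmQLFit, glmQLFTest, Benjamini-Hochberg over all genes tested), with the thresholds of the paper's methods. The interaction of MSTRG.4401.1 KO with cell line used 12 libraries. The test was checked on simulated counts. Gene positions and exon lengths came from GENCODE 44 and promoters from RefSeq. A floor of 3 counts in a library corresponds to 0.0293 to 0.116 CPM and covers counting error only, since reads that carry no molecular identifier may be copies of 1 molecule. Members, lists and roles were chosen with earlier results of these data known. Every called member is named, and values per library are given for up to 8 called members a comparison, by size of change, and for 13 fixed genes.

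Alternatives were DESeq2 1.42.0, upper-quartile normalization, no filter, each library left out, all libraries of a line in one fit, the other HCT116 wild type, S8 and S9 left out, and the number as a replicate block. The fit of all HCT116 libraries but S8 and S9 was added after the data were seen.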

Additional observations from a re-analysis of the deposited data

Results flagged for a closer look

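For 11 members the effect of MSTRG.4401.1 KO differed between A549 and HCT116 by the interaction test of edgeR at FDR < 0.1. The log2(fold change) in A549 minus that in HCT116 was 8.47 for OAS1, 7.52 for IFI44, 5.48 for GBP1, 2.201 for IFI27 and 1.41 for IRF9. It was -1.80 for CD274, -1.35 for SAMHD1, -1.03 for IFIT5, -0.997 for PSMB9, -0.67 for B2M and -0.37 for TAP2. The values of OAS1, IFI44 and GBP1 rest on groups at or near 0 counts, where the fitted size depends on the prior count. OAS1 rose in A549 by a log2(fold change) of 0.92 and was at 0 in HCT116 MSTRG.4401.1 KO. IFI44 had 0 counts in A549 WT B and under 0.1 CPM in the A549 KO, and GBP1 stayed under 1 CPM in every library. Of 38 members tested, 5 were more positive and 6 more negative in A549, close to the 11.6% and 15.4% of all genes. The count is therefore not particular to these members. Leaving out 1 library at a time gave 6 to 14 members, with the lowest number without HCT116 WT B library S14 and 7 without HCT116 MSTRG.4401.1 KO library S10.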

How the results depend on the processing

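Counts below are members called, then members at FDR < 0.1, by edgeR's quasi-likelihood test unless DESeq2 is named. For HCT116 MSTRG.2513.6 KO the counts of 1 and 1 became 7 and 9 with DESeq2, 2 and 2 with upper-quartile normalization, 0 and 0 with no filter, 7 and 10 with all HCT116 libraries in one fit and 2 and 16 with S8 and S9 left out, and leaving out 1 library gave 0 to 18 and 0 to 28, the highest without S11. The genes called among all genes moved too for HCT116 MSTRG.2513.6 KO. They went from 246 of 26374 to 10636 of 28577 without S11, and to 3487 of 30014 with all HCT116 libraries in one fit. For HCT116 MSTRG.4401.1 KO, 5 and 23 became 0 and 0 with all HCT116 libraries in one fit. They became 6 and 10 when S8 and S9 were kept out of that fit, and 8 and 11 with WT A as control. Leaving out 1 library gave 4 to 7 and 14 to 20 (14 without S13). For MSTRG.34636.7 KO, 1 and 2 became 5 and 7 with DESeq2, 0 and 1 with no filter, 0 and 0 with all HCT116 libraries in one fit, 5 and 8 when S8 and S9 were kept out, 9 and 24 with WT B as control, and 0 to 5 and 0 to 10 without 1 library. With the replicate block they became 0 and 0. Among all genes, 385 of 28816 were called in the main fit of this KO and 4059 of 27971 with WT B as control. With all HCT116 libraries in one fit 90 of 30014 were called, and 888 of 32892 when S8 and S9 were kept out. Same-numbered libraries of that KO and WT A correlated at 0.016 to 0.076, and all 3 libraries of that KO correlated best with their own number. The labels do not say whether these numbers mark paired samples, and such weak correlations do not settle it. Between WT A and WT B of HCT116, and between WT B of the lines, same-numbered libraries correlated at -0.17 to 0.013. For A549 MSTRG.2513.6 KO, leaving out 1 library gave 1 to 3 and 1 to 8 for 2 and 7, and for A549 MSTRG.4401.1 KO 6 to 8 and 12 to 20 for 6 and 19 (12 without S21). WT A against WT B had 3 at FDR < 0.1, 5 with DESeq2, and 1 to 2 called and 2 to 5 at FDR < 0.1 without 1 library. The counts between the wild-type lines stayed at 18 to 22 and 26 to 30, and those between the A549 KOs at 7 to 12 and 13 to 20. The block changed no other count by more than 1.5 times. The cause of these changes was not tested.

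Directions turned as follows, in log2(fold change). In A549 MSTRG.4401.1 KO, IRF1 was -0.055 with DESeq2, and STAT2 0.10 and IFIT1 0.13 with upper-quartile normalization, where MX1 between the wild-type lines was -0.056. In HCT116 MSTRG.2513.6 KO against WT A, TAP1 was 0.20, STAT2 -0.69, IFI27 0.24 and MX1 -0.26, and with S8 and S9 left out HLA-B was 0.15, TAP1 0.031, IFI27 0.20, OAS1 -0.47 and BST2 0.70. In HCT116 MSTRG.4401.1 KO against WT A, TAPBP was 1.66, STAT2 -0.81, ISG15 0.26 and IFI27 0.31. In MSTRG.34636.7 KO against WT B, TAP1 was -0.14, IFI27 -0.12, MX1 0.50 and BST2 1.36. With 3 against 3 libraries an exact two-sided permutation test cannot go below p = 0.10, and levels under about 0.1 CPM lie at the floor of 3 counts.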
